A study of Mus musculus with 8 samples.

Results

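Melatonin given alone to unstimulated macrophages was compared with untreated macrophages by setting 1 array against 1 array. The cells were RAW264.7, an established mouse macrophage line that grows in culture without added growth factors. The array titled Melatonin held RNA of cells that received melatonin at 1 mM for 1 h and no LPS, and the array titled control held RNA of cells left without either agent. The labels name no vehicle for the control. The whole series has 8 arrays, with 1 array each for 1, 3 and 5 h of LPS at 100 ng/ml after the melatonin hour or without it. Genes entered if a probe was well above background on both arrays, and the members so chosen were 14850 of the 30094 genes with a probe on the array. With 1 array a side there is no replicate and no test, so every difference below is a value of these 2 arrays, and the number of arrays limits its precision.

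Melatonin is the pineal hormone of darkness. It acts through the G protein-coupled receptors MT1 and MT2, binds the quinone reductase encoded by Nqo2, and at high concentration scavenges radicals without a receptor. Macrophages are phagocytes that take up particles through scavenger and Fc receptors and call in other leukocytes with chemokines. p53, the transcription factor encoded by Trp53, raises a set of genes that halt the cell cycle, repair DNA or prepare apoptosis when cells are stressed.

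The treatment entry of the sample titled Melatonin also lists LPS for 1 h, against its title, description and source name, so genes that answer to LPS were read on that array first. The 20 genes with the largest LPS 1 h minus control difference, among those well above background on both of these arrays, were 4.47 to 6.69 log2 higher with LPS (median 5.23). On the melatonin array the same 20 genes differed from the control by -2.03 to 0.76 log2 (median -0.17), and all 20 lay closer to the control than to the LPS array. Tnf, the early inflammatory cytokine, stood at 2.72 on the control array, 2.54 on the melatonin array and 7.52 after 1 h of LPS, all as log2 signal relative to the 75th percentile of the array. Il1b, which encodes interleukin 1 beta, stood at -1.14, -1.86 and 4.56 on the same 3 arrays. Egr1, an immediate early transcription factor, stood at -0.05, 0.54 and 5.60. The array titled Melatonin thus carried levels of these LPS-responsive genes near those of the control array, and it is used below as melatonin without LPS.

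**Figure D1:**
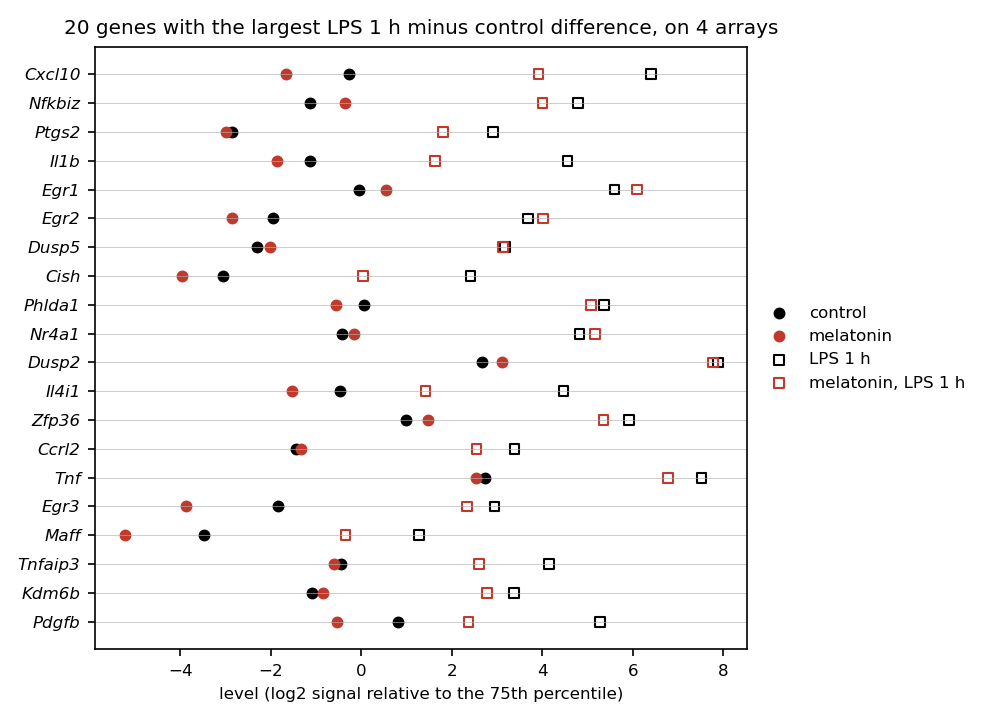
Levels (log2 signal relative to the 75th percentile of the array, horizontal axis) of the 20 genes with the largest LPS 1 h minus control difference, on the control array (black circles), the melatonin array (red circles), the LPS 1 h array (black open squares) and the melatonin with LPS 1 h array (red open squares). All 20 red circles lie nearer to the black circles than to the black squares.

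On the melatonin array 368 of 14850 genes (2.48%) differed at least 2-fold from the control, 212 of them higher (1.43%) and 156 lower (1.05%). With normexp background correction 80 genes were at least 2-fold higher and 78 lower, and with only probes above background on all 8 arrays 112 were higher. At the lower fold of 1.5, 835 genes (5.62%) were higher and 772 (5.2%) lower. The difference of all genes had a median of -0.03 log2 and an SD of 0.40 across genes. Most of the higher genes were dim. With the genes ranked by level and divided into 4 groups of equal size, 143 of the 212 lay in the dimmest group and 20 in the 2 brighter groups, while 71 and 35 of the 156 lower genes did. The SD of the difference across genes was 0.51 log2 in the dimmest group and 0.28 in the brightest. The median difference was -0.04, 0.04, 0.01 and -0.13 log2 from the dimmest to the brightest group. Under quantile normalization the median of the brightest group was 0.01, so its shift depends on the scaling.

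**Figure D2:**
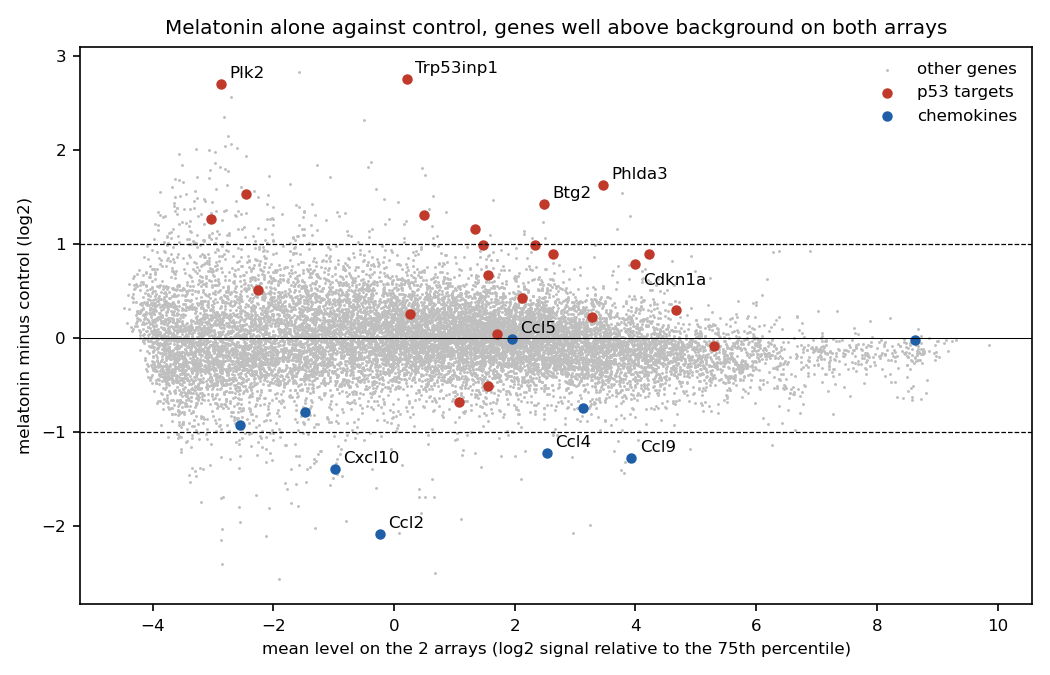
Melatonin minus control difference (log2, vertical axis) against mean level on the 2 arrays (log2 signal relative to the 75th percentile, horizontal axis) for the 14850 genes, with the 23 p53 targets in red and the 9 measured chemokines in blue. Dashed lines mark 2-fold; red points lie mostly above 0, up to Trp53inp1 at 2.75, and blue points lie below 0, down to Ccl2 at -2.08.

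A yardstick for these sizes came from within the arrays. Spots of 279 probes printed 10 times differed by a median SD of 0.044 log2 on the control array and 0.041 on the melatonin array. Among 5998 genes with more than 1 probe above background, the median SD of the difference between the probes of a gene was 0.13 log2, and its 95th percentile 0.49. Of 38 such genes that were at least 2-fold lower, 36 were lower by every probe and 27 at least 1.5-fold lower by every probe. Of 41 that were at least 2-fold higher, 31 were higher by every probe and 23 at least 1.5-fold higher by every probe. These spreads cover spots and probes, and hold nothing of the spread between cultures. The melatonin array had 49.3% of its probes well above background and the control array 52.5%. All 8 arrays lay on 1 slide, with the melatonin arrays in row 2 and the others in row 1, so melatonin and slide row cannot be told apart.

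The p53 targets had the highest median of the 49 gene lists read here. Lists and members were chosen with earlier results of these data known, so this rank and the counts below only describe these values. All 23 members of the list were measured, and 20 were higher and 3 lower on the melatonin array. Of the 23, 14 were at least 1.5-fold higher, beside 5.62% of all genes, and 8 at least 2-fold higher, beside 1.43%. Their median difference was 0.89 log2, against -0.03 over all genes.

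Trp53inp1 encodes a nuclear protein that enhances p53 activity and autophagy. It stood at -1.16 on the control array and 1.59 on the melatonin array, a difference of 2.75 log2 or 6.74-fold, and its second probe gave 1.73. Its probe lies on mm9 at chromosome 4, 11101174 to 11101233. Phlda3 encodes a pleckstrin homology protein that holds back AKT. It stood at 2.65 and 4.28, or 3.09-fold higher, by its probe at chromosome 1, 137665642 to 137665701. Btg2, an antiproliferative gene of early p53 responses, stood at 1.77 and 3.19, and its 2 probes gave 1.38 and 1.42 log2. All 3 genes were bright enough on the melatonin array to lie above the 75th percentile of its signal, which is 0 on this scale.

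Plk2, a polo-like kinase, stood at -4.22 and -1.52, a difference of 2.70 log2 from a level on the control array near the dim end of the measured range. Eda2r, a receptor of the TNF receptor family, stood at -3.23 and -1.70, and its probes ranged from 0.74 to 1.53 log2. Tnfrsf10b, the mouse TRAIL death receptor, stood at -0.16 and 1.16, and its 3 probes gave 1.20 to 1.53. Gadd45a, a DNA damage and growth arrest gene, stood at -3.67 and -2.41, 1.26 log2 higher but dim on both arrays. Pmaip1, which encodes the BH3-only protein NOXA, stood at 0.76 and 1.92.

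Further members lay between 1.5-fold and 2-fold by the probe used. Ccng1, cyclin G1, stood at 1.83 and 2.82, or 0.99 log2 higher, and Sesn2, a sestrin that restrains mTORC1, at 0.97 and 1.96, also 0.99 higher. Mdm2, the ubiquitin ligase that degrades p53, stood at 3.78 and 4.67, and its probes gave 0.89 and 1.12. Bbc3, which encodes the BH3-only protein PUMA, stood at 2.18 and 3.08. Cdkn1a encodes p21, the inhibitor of cyclin-dependent kinases. It stood at 3.60 and 4.38, 0.79 log2 higher by its brightest probe, while its 3 probes ranged from 0.50 to 1.77. Its size therefore depends on the probe, and its direction does not.

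Not every member was higher. Bax, the apoptosis effector, differed by -0.08 log2. Trp53 itself, a member of the list but not of its targets, stood at 1.81 and 1.30, a difference of -0.51. Fas, another death receptor, stood at 1.42 and 0.74 by its brightest probe, but its other probe was 1.89 higher, so its direction is not settled here.

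**Figure D3:**
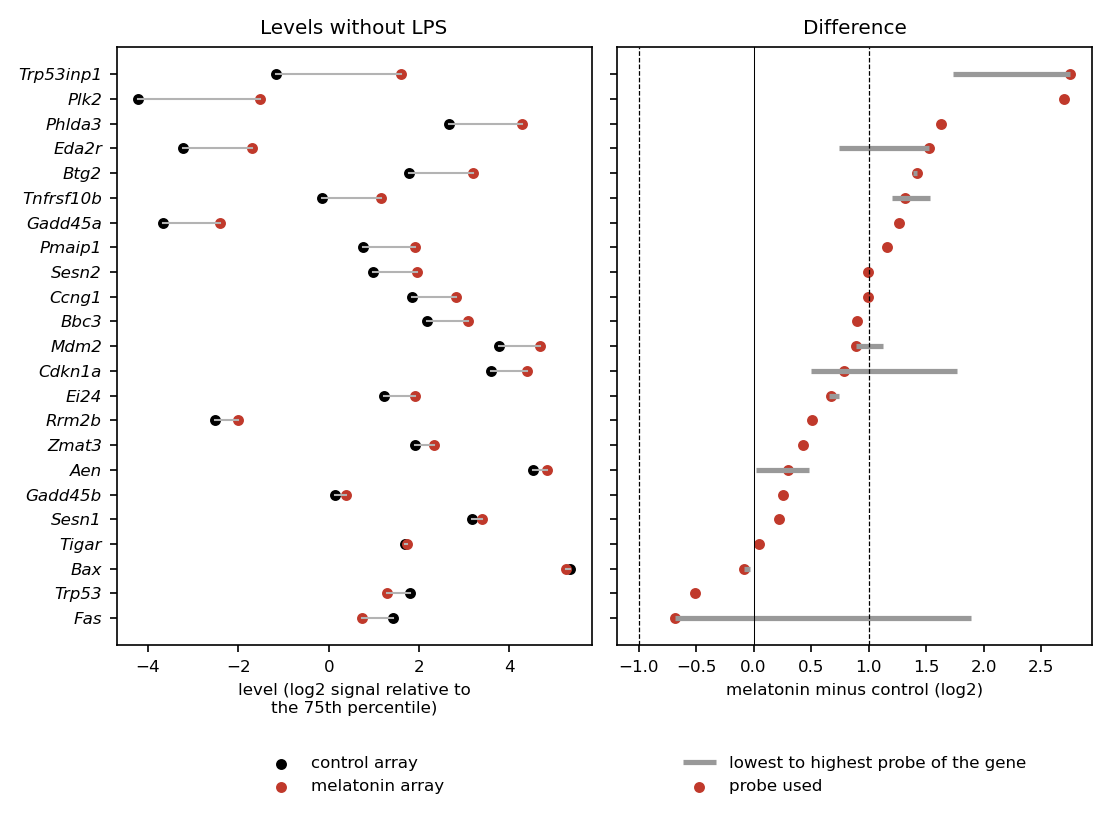
Left, levels (log2 signal relative to the 75th percentile) of the 23 p53 targets on the control array (black) and the melatonin array (red), joined by a line. Right, melatonin minus control (log2) for the probe used (red) with the range over the probes of the gene (grey bars); dashed lines mark 2-fold, and Fas has the widest range, from -0.68 to 1.89.

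The promoters of the p53 list were searched for the p53 half-site consensus, a palindrome that p53 dimers recognise, in the 250 bases before the RefSeq start on GRCm38.p6. Of the 23 genes 18 had a promoter in the table, and 9 of the 18 held a match, beside 8.20% of all 27025 genes in the table and 7.63% of the measured genes with a promoter. The list was made of known p53 targets and of Trp53 itself, so this share describes the list and not the response. Among genes at least 2-fold higher with a promoter in the table, 19 of 150 (12.7%) held a match, and among those at least 2-fold lower 9 of 106 (8.49%). A match is a run of letters and not a site shown to be bound. Stretches from 4 members that were higher on the melatonin array are shown 5′ to 3′ on the strand of the gene, with matches to the half-site in capitals. The members with a match that are not shown were Ei24 (0.68 log2), Aen (0.30), Sesn1 (0.22), Bax (-0.08) and Trp53 (-0.51). Whether a match goes with a rise was not tested. The Cdkn1a stretch holds 2 half-sites no more than 13 bases apart, as do the promoters of only 18 genes of the table (0.0666%). These Cdkn1a half-sites begin 73 and 51 bases before the start, and those of the other 3 genes begin 186 (Mdm2), 185 (Ccng1) and 40 (Gadd45a) bases before it. Only full matches are marked. The run tgacatgttc directly after the second Cdkn1a half-site misses the consensus by its first base and stays in lower case.
Cdkn1a, chr17:29090871-29090950, + strand: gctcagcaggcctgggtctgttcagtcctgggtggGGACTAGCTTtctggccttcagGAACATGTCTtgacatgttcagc
Mdm2, chr10:117710900-117710979, - strand: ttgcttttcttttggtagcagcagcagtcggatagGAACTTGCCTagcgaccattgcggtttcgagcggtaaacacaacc
Ccng1, chr11:40755427-40755506, - strand: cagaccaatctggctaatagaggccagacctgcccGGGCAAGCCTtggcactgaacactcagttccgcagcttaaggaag
Gadd45a, chr6:67037408-67037487, - strand: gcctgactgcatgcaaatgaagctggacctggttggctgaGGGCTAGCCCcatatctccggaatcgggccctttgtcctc

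Genes of neighbouring stress programmes had smaller medians. Of 19 measured ATF4 stress genes, which answer to amino acid shortage and endoplasmic reticulum stress, 7 were at least 1.5-fold higher (beside 5.62% of all genes) and none 1.5-fold lower, with a median of 0.20 log2 (0.35 under quantile normalization). Ddit4, an inhibitor of mTORC1, stood at 3.00 and 4.55, or 2.91-fold higher, and Atf5, a transcription factor of the same programme, at 3.11 and 4.27 with probes of 1.16 and 1.28. Atf4 itself differed by 0.15 and Ddit3, which encodes CHOP, by 0.12. Of 20 FOXO and PI3-kinase feedback genes 6 were at least 1.5-fold higher, Pik3ip1 (0.86) and Foxo1 (0.59) among them, and 1 lower, beside 5.62% and 5.2% of all genes (median 0.25). Foxo3 (0.58) lay just under that fold, while Txnip, a usual FOXO and glucose marker, differed by -0.12.

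Ulk1, the kinase that starts autophagy, stood at 1.79 and 3.18, or 2.61-fold higher. It was the only 1 of 31 measured lysosome and autophagy genes past 2-fold, beside 2.48% of all genes in either direction. Of 16 heat shock genes 1 was past 2-fold, beside the same 2.48% of all genes. Hspa1b, the inducible HSP70, stood at -0.43 and 1.37, while the constitutive Hspa8 differed by 0.00 log2. Hspa1b has a near-identical copy, Hspa1a, that its probe may also read. Chaperones of the unfolded protein response had a median of -0.36 (-0.16 under quantile normalization). Of these 16 genes 1 was at least 1.5-fold higher and 3 lower, beside 5.62% and 5.2% of all genes.

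**Figure D4:**
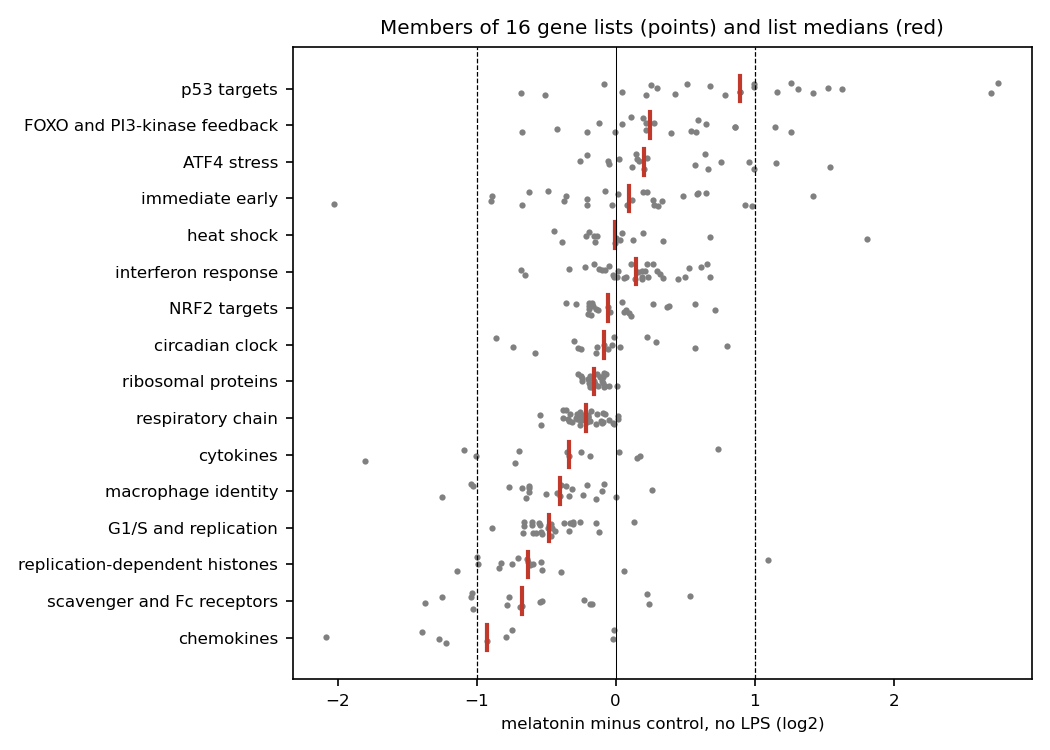
Melatonin minus control difference without LPS (log2, horizontal axis) of the measured members of 16 gene lists (grey points, spread vertically for visibility), with the median of each list as a red bar. The p53 targets have the highest median, 0.89, and the chemokines the lowest of these lists, -0.92.

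Among all genes with an established symbol, the 15 highest differences that kept their direction under 3 other ways of processing ran from 1.84 to 2.83 log2. Of these ways, quantile normalization and the deposited table gave near-equal values. With normexp each of the 15 was smaller, from 0.84 (Sh3yl1) to 2.52 log2 (Trp53inp1), with Plk2 at 1.55 and Fap at 0.96. Robo3, a receptor of axon guidance, led in the main processing with -2.98 on the control array and -0.16 on the melatonin array. Crip2, a LIM domain protein, stood at -1.66 and 0.66, or 4.99-fold higher. Zfp365, a zinc finger gene of the DNA damage response, stood at -1.33 and 0.55. The other 12 were Trp53inp1, Plk2, Dnajc28, Olfr1243, Efna4, Olfr1419, Fap, Dagla, Vav2, Sez6l, Mab21l3 and Sh3yl1. Trp53inp1, Crip2 and Zfp365 stood above the 75th percentile on the melatonin array, and the other 12 below it on both arrays. Vav2 rests on 1 probe at 1.98, since its other probe gave 0.17.

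Brighter genes that were at least 2-fold higher, the 20 in the 2 brighter groups by level, were chosen for mention after their values were seen. Besides Phlda3, Ddit4, Btg2, Ulk1, Pmaip1 and Atf5 they included Rhod, a small GTPase, at -0.11 and 1.40 with probes of 1.36 and 1.51. Kank3 stood at 0.91 and 2.37, 2.76-fold higher. Abhd4, a lipase of the N-acyl phospholipid pathway, stood at 3.25 and 4.55, or 2.47-fold higher. Aldh4a1, a mitochondrial enzyme of proline breakdown, stood at 1.59 and 2.73. Slc19a2, a thiamine transporter, stood at 1.85 and 3.08, and Dcxr, a carbonyl reductase, at 0.20 and 1.54, although the 4 probes of Dcxr ranged from 0.16 to 1.34.

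Genes on the lower side included some of macrophage surface and secretion. Plau encodes urokinase, the secreted plasminogen activator of migrating macrophages. It stood at 1.93 on the control array and -0.57 on the melatonin array, 5.66-fold lower, and its 2 probes differed by -2.50 and -2.17 log2. Its probe lies on mm9 at chromosome 14, 21662487 to 21662546. Gpr84, a receptor for medium-chain fatty acids, stood at 3.999 and 1.93, or 4.20-fold lower. Tmem98 stood at 4.24 and 2.26. Cd5, a scavenger receptor family member best known from T cells and B-1 cells, stood at 2.06 and 0.15. Of the 10 T cell markers 5 were measured, at differences of -0.31 to 0.37 log2, and none of these reached 1.5-fold.

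The other members of the 15 lowest were Ccr6, Bcl6b, Slc17a6, Ccl2, Dab2, Egr3, Mtarc1, Gpr183, Il1rn, Bcam and Bdh2. Dab2, an endocytic adaptor, stood at 1.12 and -0.96 with both probes lower (-2.08 and -1.70). Gpr183, the oxysterol receptor that guides leukocytes, stood at 0.18 and -1.76. Ccr6, a chemokine receptor, stood at -1.65 and -4.05, and Bcl6b, a transcriptional repressor, at -1.80 and -3.94, both dim on the melatonin array. Egr3, an immediate early factor, stood at -1.84 and -3.87, while Egr1 was 0.59 log2 higher and Fos 0.20 higher.

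Chemokines were the list with the lowest median, a rank that has the same limit as that of the p53 targets. Of 18 members 9 were measured, none at least 1.5-fold higher, 7 at least 1.5-fold lower beside 5.2% of all genes, and 4 at least 2-fold lower beside 1.05%. Their median was -0.92 log2, and -0.013 where the members not above background were counted too. Ccl2, the main attractant of monocytes, stood at 0.81 and -1.27, or 4.23-fold lower, by its probe on mm9 at chromosome 11, 81850650 to 81850709. Cxcl10, an interferon-induced attractant of T cells, stood at -0.28 and -1.67. Ccl9 stood at 4.57 and 3.30, and Ccl4, an attractant of monocytes and T cells, at 3.14 and 1.92 with both probes lower (-1.22 and -1.05). Ccl3, its neighbour in function, stood at 3.50 and 2.75. Ccl5 differed by -0.01 and Cxcl11 by -0.02. The other 9 members, Cxcl1 and Cxcl2 among them, were not well above background on both arrays. Of 7 measured chemokine receptors 4 were at least 1.5-fold lower and 1 higher, beside 5.2% and 5.62% of all genes (median -0.61), with C5ar1, the complement C5a receptor, at -0.76. That list does not hold Ccr6 or Ccr10, which were past 2-fold lower (-2.40 and -1.22), Ccr10 being named after its value was seen.

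Cytokines gave a mixed picture. Of 24 members 13 were measured, 5 at least 1.5-fold lower and 1 higher (beside 5.2% and 5.62% of all genes), with a median of -0.33 log2. Il1rn, the interleukin 1 receptor antagonist, stood at -1.18 and -2.98, or 3.49-fold lower. Ltb, lymphotoxin beta, stood at 4.58 and 3.49, and Tnfsf15 at 0.11 and -0.89 with both probes lower. Il1b was 0.73 lower and Tnf 0.19 lower. Il15 was 0.74 log2 higher. Il6 and Edn1 were not well above background on either array.

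Scavenger and Fc receptors were lower as a group. Of 17 measured members 9 were at least 1.5-fold lower and none that much higher, 5 were at least 2-fold lower, and the median was -0.68 log2. Over all genes 5.2% were at least 1.5-fold lower and 1.05% at least 2-fold lower. Clec7a encodes Dectin-1, the beta-glucan receptor. It stood at -0.71 and -2.08, or 2.58-fold lower. Fcgr3, a low-affinity Fc gamma receptor, stood at 0.30 and -0.74 with probes of -1.04 and -0.76. Msr1, the class A scavenger receptor, stood at 1.72 and 0.69 with probes of -1.38 and -1.03. Cd36, which takes up oxidised lipoprotein, stood at -1.93 and -3.18, and Axl, a receptor for apoptotic cells, at -0.27 and -1.30. The exceptions were Stab1 (0.54), Scarb2 (0.24) and Trem1 (0.22), which were higher, all by less than 1.5-fold.

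Macrophage markers were present on both arrays, with 23 of 25 identity genes measured. Csf1r, the CSF-1 receptor, stood at 8.16 and 8.07, and Adgre1, which encodes F4/80, at 2.75 and 2.75. Of the 23, 9 were at least 1.5-fold lower (beside 5.2% of all genes) and none higher, with a median of -0.40 log2 (-0.26 under quantile normalization). The 3 that were at least 2-fold lower (beside 1.05% of all genes) were Fcgr3, Msr1 and Cd36. These are also counted above among scavenger and Fc receptors, so the lists share members. Spi1, which encodes the myeloid factor PU.1, stood at 0.90 and 0.27. Cd14, the LPS co-receptor, stood at 6.07 and 5.45. Of the 9 fibroblast and 8 epithelial markers none was measured, and of the 8 B cell and 6 mast cell markers 2 and 1 were.

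Further genes that were at least 2-fold lower included regulators and lipid genes. Rgs16 and Rgs1, which shorten G protein signals, stood at 0.50 and -1.09, and at -1.37 and -2.66, while Rgs12 stood at -4.05 and -2.59, higher but dim. Lpl, lipoprotein lipase, stood at 4.53 and 3.099 by its brightest probe, and its 6 probes ranged from -1.43 to -0.16. Bcl2a1d, an antiapoptotic BCL-2 relative, stood at 5.49 and 4.31. Bcl2a1 genes are near-identical copies, so the probe may read several of them. Bcl2l1, which encodes BCL-XL, was 0.87 log2 lower by its brightest probe and lower by all 4 (-1.14 to -0.76). The proapoptotic Bcl2l11, which encodes BIM, was 0.86 higher by its brightest probe, with a range of 0.22 to 0.86 over 4 probes. The BCL-2 family as a list had a median of -0.035 log2, with 7 of 14 measured members higher and 7 lower. Of the 14, 4 were at least 1.5-fold higher and 2 lower, beside 5.62% and 5.2% of all genes.

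Brighter genes on the lower side, among the 35 in the 2 brighter groups by level and again named after their values were seen, included Flt1, the VEGF receptor 1, at 1.496 and -0.19 with 3 probes between -1.93 and -1.68. Kcnn4, a calcium-activated potassium channel, stood at 4.46 and 3.05 with all 3 probes lower (-1.41 to -1.23). Dcstamp, a fusion protein of osteoclasts, stood at 2.13 and 0.76. Clec5a, a myeloid lectin, stood at 3.59 and 2.32 with 3 probes between -1.26 and -1.24. Dhrs3, a retinal reductase, stood at 4.60 and 3.30, and Hmga2, a chromatin architectural protein, at 1.96 and 0.73, both with 2 probes that differed by less than 0.13 log2. Igf1, insulin-like growth factor 1, stood at 2.77 and 1.58, with probes from -1.20 to -0.50.

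Cell cycle genes were lower by small steps. Of 27 measured G1/S and replication genes 26 were lower and 7 at least 1.5-fold lower (beside 5.2% of all genes), with a median of -0.48 log2 (-0.36 under quantile normalization). Cdc6, which loads the replicative helicase, stood at 1.46 and 0.57, and Mcm2, a subunit of that helicase, at 3.21 and 2.54. Pcna, the replication clamp, stood at 5.09 and 4.62. G2/M and mitosis genes had a median of -0.29 (-0.16 under quantile normalization), with 26 of 27 lower and none past 1.5-fold. Of 16 replication-dependent histone genes 11 were at least 1.5-fold lower and 1 higher, again beside 5.2% and 5.62% (median -0.63). The linker histones H1f3 and H1f1 were both 0.99 log2 lower, and H2ac4 stood at 6.84 and 5.70. H2bc4 went the other way, at 1.04 and 2.14. Histone genes share much of their sequence, so a probe may read more than 1 copy. For scale, ribosomal proteins had a median of -0.15, proteasome subunits -0.21 and the respiratory chain -0.21, beside -0.13 for the brightest group of all genes. None of these lists had a member past 1.5-fold, yet 28 of 29, 26 of 27 and 35 of 37 members were lower. A count of nearly all members lower is thus not particular to the cell cycle genes. Under quantile normalization the medians of these lists were 0.03, -0.03 and -0.01.

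Genes tied to melatonin itself were few. Mtnr1a and Mtnr1b, the MT1 and MT2 receptors, were not well above background on either array by any of their probes. Nqo2, the melatonin-binding quinone reductase, stood at 2.56 and 2.48. Of the 12 measured genes of melatonin receptors, synthesis and binding, 1 was at least 1.5-fold higher and 2 lower. Over all genes these shares were 5.62% and 5.2%. Rora, a nuclear receptor once proposed for melatonin, was not well above background on the control array.

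Antioxidant genes lay close to the control. Of 23 NRF2 targets 1 was at least 1.5-fold higher and none lower, beside 5.62% and 5.2% of all genes (median -0.06 log2). That 1 was Srxn1, sulfiredoxin, at 2.44 and 3.15. Hmox1, heme oxygenase 1, stood at 3.70 and 3.53, and Nqo1 was not well above background. Of 18 genes that remove peroxide and superoxide 1 was at least 1.5-fold higher, Sesn2, and 1 lower, Glrx (-0.80), beside the same shares. Sod2, the mitochondrial superoxide dismutase, stood at 1.19 and 1.16. Mt2, a metallothionein, stood at 4.19 and 5.01, 0.82 log2 higher, whereas Mt1 differed by -0.09 by its brightest probe.

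Of 17 measured circadian clock genes 1 was at least 1.5-fold higher, Tef at 0.80 log2, and 2 lower, Bhlhe40 at -0.86 and Per2 at -0.74, with a median of -0.08. These shares lie near the 5.62% and 5.2% of all genes. Per1 differed by -0.13 and Nr1d1 by -0.01. Interferon response genes had a median of 0.15, with 3 of 34 at least 1.5-fold higher and 2 lower, beside 5.62% and 5.2%. Of 28 immediate early genes 6 were at least 1.5-fold higher and 5 lower (median 0.10), beside 5.62% and 5.2%. Dusp1, a phosphatase of MAP kinases, stood at -0.50 and 0.41. Nfkbia, the NF-kB inhibitor, differed by -0.19, Nos2, the inducible nitric oxide synthase, by -0.63, and Tiparp, an aryl hydrocarbon receptor target, by -0.04. Cyp1b1, another such target, was not well above background on either array.

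Some genes were well above background on only 1 of the 2 arrays, 393 on the melatonin array and 1289 on the control array. For these a lower bound of the fold was taken against the dimmest probe called above background on the other array, or the dim probe itself where it was brighter. The bound was at least 2-fold for 241 and 151 genes. That dimmest level was -4.72 for the melatonin side and -4.35 for the control side, so the bound is easier to pass on the melatonin side. Of all probes 49.3% were well above background on the melatonin array and 52.5% on the control array. The largest bounds on the melatonin side were those of Ppp1r18os (at least 16.8-fold higher), Gpr135, Dgkeos, Sis, Vsig10l and Inka2 (at least 9.85-fold). On the control side they were Fcgbp (at least 16.1-fold lower with melatonin), Slc16a14, Olig2, Vmn1r214, Mtmr11 and Zkscan2 (at least 9.43-fold). Inka2, an inhibitor of PAK4, was also 3.06, 3.50 and 2.09 log2 higher in the melatonin arm at 1, 3 and 5 h of LPS, while Ppp1r18os was 0.29, 0.09 and 0.50 higher there. Fcgbp differed by 0.48, -2.27 and 0.23 at the 3 times. At 1 h both of these genes were not well above background on either array.

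The same genes were then read in the pairs with LPS, which share no array with the pair without it. Those cells had melatonin for 1 h before LPS, and the labels do not say whether it stayed in the medium. Of the 212 genes at least 2-fold higher without LPS, 165 were at least 1.5-fold higher at 1 h of LPS (77.8%, beside 9.32% of all genes), 150 at 3 h (70.8%, beside 15.5%) and 136 at 5 h (64.2%, beside 14.4%). All 3 pairs were at least 1.5-fold higher for 120 of them. Of the 156 lower genes, 135 were at least 1.5-fold lower at 1 h (86.5%, beside 7.16%), 117 at 3 h (beside 10.4%) and 106 at 5 h (67.9%, beside 9.72%), and 89 in all 3 pairs. Many of these genes were dim in the pairs with LPS. Both arrays of the pair showed signal well above background for 181, 147 and 116 of the 212 higher genes at 1, 3 and 5 h, and 144, 99 and 70 of those were at least 1.5-fold higher. Over all genes so measured in the pair, 8.82%, 13.97% and 12.70% were that much higher. For the 156 lower genes these numbers were 146, 142 and 132, and 128, 107 and 92 of those were at least 1.5-fold lower. Over all genes so measured, 6.68%, 10.15% and 8.99% were that much lower. In the 2 brighter groups by level the numbers at 1 h were 18 of 20 higher and 34 of 35 lower genes. The shares beside them, over all genes of any level, were 9.32% and 7.16%. All of these pairs set slide row 2 against row 1, so the arm and the row cannot be told apart here either.

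By gene, Trp53inp1 was 3.21, 3.71 and 3.65 log2 higher at 1, 3 and 5 h of LPS, above its 2.75 without LPS. Phlda3 (1.86, 2.59 and 2.08) and Robo3 (2.89, 2.17 and 1.92) also stood higher at each time. Plau differed by -2.51, -1.87 and -1.80 log2 at the 3 times, beside -2.50 without LPS. Cd5 differed by -2.57, -2.93 and -2.32, and Ccl2 by -1.89, -3.04 and -2.36. Il1rn differed by -1.86, -3.39 and -3.34. These genes kept a difference of at least 2-fold at every time.

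By list, some medians shrank with LPS and others did not. The p53 targets as a list had medians of 0.54, 0.39 and 0.31 log2 at 1, 3 and 5 h. At these times 11, 7 and 8 members were at least 1.5-fold higher, against 14 without LPS. Over all genes 9.32%, 15.5% and 14.4% were that much higher at these times, against 5.62% without LPS. Btg2 was 1.42 higher without LPS but 0.36, 0.39 and 0.21 with it. Plk2 went from 2.70 without LPS to 0.73, -0.12 and -1.57. Bbc3 was 0.90 higher without LPS and differed by -0.74, -0.47 and -0.41 with it. The chemokine median was -1.46, -1.07 and -0.62 at 1, 3 and 5 h, and that of scavenger and Fc receptors -0.68, -0.93 and -0.72. Histones went from -0.63 without LPS to -0.68, -0.55 and -0.06, while G2/M and mitosis genes went from -0.29 to -0.28, -0.73 and -1.05. All 27 G2/M and mitosis genes were at least 1.5-fold lower at 5 h, beside 9.72% of all genes. Interferon response genes, at 0.15 without LPS, had medians of -0.03, -1.65 and -0.66.

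**Figure D5:**
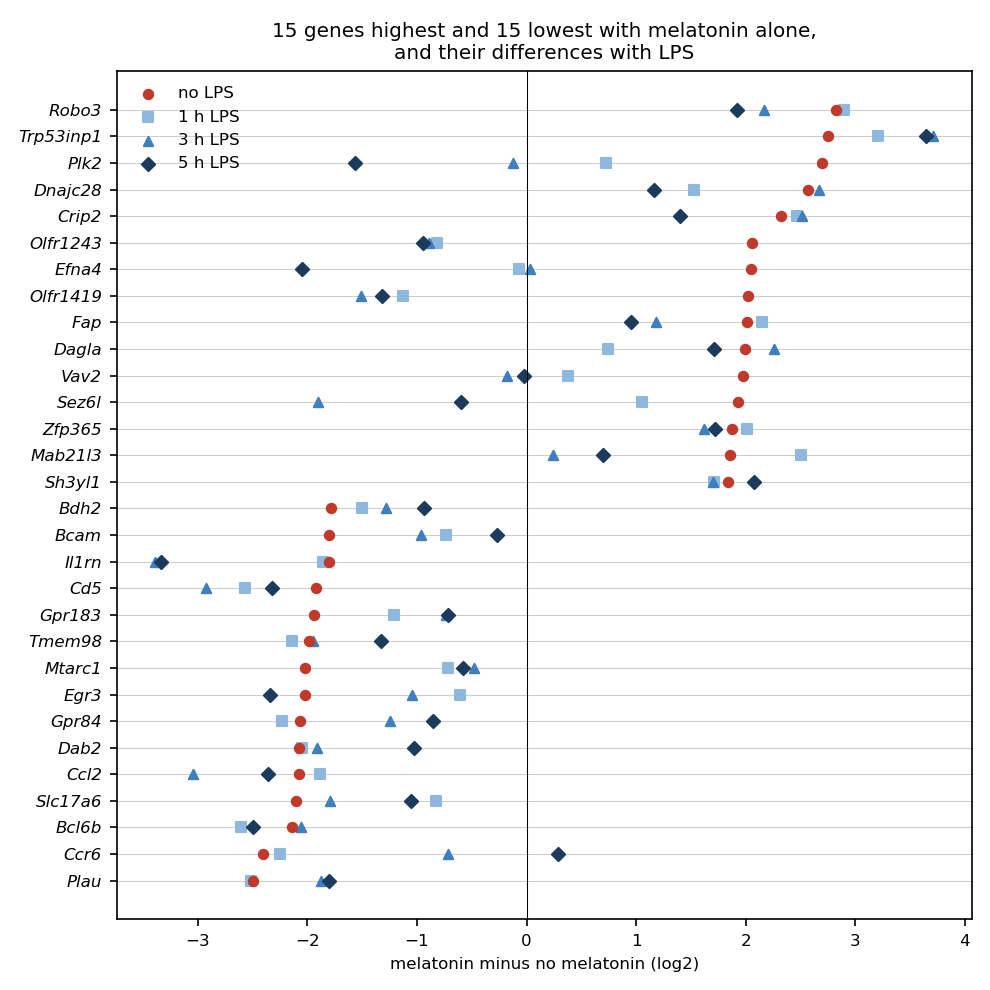
Melatonin minus no melatonin difference (log2, horizontal axis) of the 15 highest and 15 lowest named genes, without LPS (red circles) and after 1 h (light squares), 3 h (triangles) and 5 h (dark diamonds) of LPS, each from 1 pair of arrays. Blue symbols of Trp53inp1, Robo3, Plau, Cd5, Ccl2 and Il1rn stay on the side of the red circle, and those of Olfr1243 and Olfr1419 lie on the other side. Those of Plk2, Efna4, Vav2, Sez6l and Ccr6 fall on both sides of 0.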

How the data were processed

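Gene expression was read from 1-colour (Cy3) oligonucleotide arrays. Per the file headers, the intensity column used holds signals that Agilent Feature Extraction 12.0.3.1 corrected for background. The authors' deposited log2 table was an alternative; its making is not stated in those sources. Raw scanner intensity of spot and background, as deposited, was another. Per the file headers, other columns flag saturation (none here), outliers and signal well above background with 0 or 1. Coordinates of probes refer to mm9.

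Each array's log2 signals were set relative to their 75th percentile (830.1 for control and 846.1 for melatonin). After removal of 3671 control spots among 62976, and of outliers, repeated spots were averaged to 56605 probes. RefSeq accessions named 32994 probes, and symbols in the files named others. Among a gene's probes well above background on both arrays, the brightest by mean was used. Named genes were the 15 highest and 15 lowest differences, predicted models left out, at least 1.5-fold in the same direction under quantile normalization, normexp (offset 50) and the deposited table. Added to these were 6 a side above background on 1 array only, every member of 49 gene lists past 2-fold, and a panel of 31 genes. A few genes under this rule are not reported here. Members and lists were chosen with earlier results of these data known. There was no test. Gene selection and counting were run on simulated data with shifts past 2-fold and little noise, which checks the steps and not the counts given here. Promoters came from RefSeq (GRCm38.p6). R 4.3.3, limma 3.58.1, pandas 2.3.3 and numpy 2.4.6 were used.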

Additional observations from a re-analysis of the deposited data

Results flagged for a closer look

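For 4 named genes the difference without LPS ran against all 3 differences with LPS, and this contrast was not tested. Olfr1243, an olfactory receptor gene, was 2.06 log2 higher with melatonin alone and differed by -0.81, -0.89 and -0.95 at 1, 3 and 5 h of LPS. Olfr1419, another one, was 2.02 higher alone and differed by -1.13, -1.52 and -1.32. Both stood between -3.73 and -1.60 on the 2 arrays without LPS, in the dim part of the range. Tsc22d1, a transcriptional regulator of the leucine zipper family, was 1.15 higher alone and differed by -0.03, -1.02 and -0.94, and its 4 probes ranged from -0.10 to 1.15 without LPS. Bbc3, which encodes PUMA, was 0.90 higher alone, below 2-fold, and differed by -0.74, -0.47 and -0.41.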

How the results depend on the processing

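No paired analysis was possible because each condition has 1 array. A value is called moved here if it shifted by more than the median SD between probes of a gene (0.13 log2), a count if it changed by over 1.5 times, and a share if it left its exact 95% binomial interval. Quantile normalization moved the median of macrophage identity genes to -0.26 and of scavenger and Fc receptors to -0.52, and the deposited table moved them to -0.26 and -0.52. Both settings also gave 233 genes at least 2-fold higher and 142 lower, so they are not separate checks. With normexp 80 genes were at least 2-fold higher and 78 lower, the chemokine median was -0.73, and the shares kept at 1.5-fold were 63.7% and 52.5% (higher genes, 3 and 5 h of LPS) and 66.7% and 56.4% (lower genes). With no filter on dim probes 1457 genes were higher and 1207 lower, the chemokine median was -0.013 and that of scavenger and Fc receptors -0.54. The shares kept were then 39.3%, 37.7% and 33.5% for higher genes and 45.5%, 38.0% and 34.5% for lower genes at 1, 3 and 5 h. With probes above background on all 8 arrays 112 genes were at least 2-fold higher. A fold of 1.5 gave 835 and 772 genes. The median over probes, the percentile over probes above background and centring on the median gene moved none of these 15 results. Among the lists, counts and genes named, 1 difference of at least 1.5-fold reversed. Fas went from -0.68 to 0.60 with the median over its 2 probes. Of 130 named genes 43 moved with normexp. The number of arrays and, for dim genes, the signal over background limit these values.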
